A study of Mus musculus with 22 samples.

Results

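Hippocampal open chromatin 24 h after lipopolysaccharide (LPS) was set against the saline baseline of the same tissue, in 5 of the 22 libraries of the series. The members are the 3 LPS libraries (replicates 1, 3 and 4) and the 2 saline libraries (replicates 2 and 3), taken by tissue and treatment labels. The mice were adult wild-type C57BL/6J males that modelled Gulf War Illness. All of them, controls included, drank corticosterone (CORT) for 7 days, were injected on day 8 with diisopropyl fluorophosphate (DFP), an inhibitor of acetylcholinesterase, and had intermittent CORT over 5 weeks. They then received saline or LPS. The LPS hippocampi were collected at 24 h and the saline hippocampi at 6 h, so LPS and the time of collection cannot be told apart, and no group without CORT and DFP is part of the comparison. Each library came from a separate animal, and 1 further baseline animal had been left out by the authors for low read depth.

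OMNI-ATAC-seq inserts sequencing adapters into accessible DNA with a transposase, so that promoters, enhancers and insulators appear as peaks of reads. LPS, a component of the outer membrane of Gram-negative bacteria, is sensed by CD14 and Toll-like receptor 4 on myeloid and endothelial cells, and the signal runs through NF-kB to cytokine and chemokine genes. The hippocampus is built of granule and pyramidal neurons, interneurons, glia and vessels, and these libraries are of whole tissue. Fewer cells of a type and less open chromatin per cell therefore cannot be told apart.

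Windows reaching 250 bp to either side of a summit were placed over all 5 peak lists, which gave 390141 windows without overlap, of which 295785 had a peak in 2 or more libraries and 177389 in all 5. A window was called gained when all 3 LPS libraries and neither saline library had a peak there, and lost when both saline libraries and no LPS library did. A start window with a peak in all 5 libraries was found at 25 of 30 hippocampal neuron identity genes. So it was at 9 of 11 excitatory neuron, 14 of 20 inhibitory neuron and 14 of 22 cortical layer and striatal genes, and the count does not single out the hippocampus. Of 24 blood leukocyte and erythroid genes 0 had one, on a list with 1 start window in 2 or more libraries. The libraries held 244412 to 278808 distinct peak intervals after LPS and 250762 and 307140 after saline, and these ranges overlapped. Read depth is unknown from peak lists. Some features of the whole lists did not overlap between the groups. The median peak width was 317, 326 and 331 bp after LPS and 304 and 292 bp after saline, and the share of peaks over 100 kb from any protein-coding gene was 16.2, 15.3 and 15.6% against 14.8 and 14.4%. The median fold value of a peak over its background, as the authors deposited it, was 3.48, 3.34 and 3.22 against 3.76 and 3.597. Each of these 3 measures had an exact two-sided permutation p of 0.2, the smallest that the 10 splits of 3 against 2 libraries allow (adjusted 0.4 over 6 measures). Their part in the results that follow was not tested.

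Promoters of 4 genes show what a gain and a loss look like at a gene start. Ptprc, Fcna and Cd244a, genes of immune cells, had a peak in every LPS library at 24 h and in no saline hippocampus, and Ccl3, a chemokine gene, had one in both saline hippocampi and none at 24 h. The runs below are the 250 bases before each RefSeq start (GRCm38.p6), written 5′ to 3′ on the strand of the gene. Capitals mark matches on either strand to 4 short motifs. These are the AP-1 letters TGANTCA, the ETS-type letters GAGGAA, the NF-kB letters (GGGNN followed by TTTCC) and the C/EBP letters TTGCNNAA. GAGGAA is a narrow form of ETS site, and other forms were not searched and are not marked.
Ptprc, chr1:138175306-138175555, minus strand: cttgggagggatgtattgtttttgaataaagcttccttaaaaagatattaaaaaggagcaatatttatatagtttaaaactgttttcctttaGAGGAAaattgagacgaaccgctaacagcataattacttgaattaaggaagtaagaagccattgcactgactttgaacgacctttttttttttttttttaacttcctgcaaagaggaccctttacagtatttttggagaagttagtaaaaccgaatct
Fcna, chr2:25627975-25628224, minus strand: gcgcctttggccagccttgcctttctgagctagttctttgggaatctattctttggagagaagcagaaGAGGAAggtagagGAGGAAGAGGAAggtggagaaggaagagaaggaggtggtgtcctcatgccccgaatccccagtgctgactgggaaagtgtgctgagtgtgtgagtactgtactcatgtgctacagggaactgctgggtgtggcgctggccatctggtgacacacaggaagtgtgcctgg
Cd244a, chr1:171558943-171559192, plus strand: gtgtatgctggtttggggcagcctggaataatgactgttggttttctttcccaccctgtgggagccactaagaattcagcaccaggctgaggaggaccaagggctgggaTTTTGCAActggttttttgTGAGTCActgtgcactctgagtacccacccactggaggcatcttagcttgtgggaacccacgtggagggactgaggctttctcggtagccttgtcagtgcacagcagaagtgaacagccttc
Ccl3, chr11:83649379-83649628, minus strand: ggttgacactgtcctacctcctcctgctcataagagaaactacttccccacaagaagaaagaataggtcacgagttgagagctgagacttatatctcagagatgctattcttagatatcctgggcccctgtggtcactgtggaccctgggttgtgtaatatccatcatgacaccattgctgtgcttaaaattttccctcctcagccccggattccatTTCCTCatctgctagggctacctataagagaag
The Fcna run held 3 GAGGAA matches, those of Ptprc and Ccl3 held 1 each, and that of Cd244a held 1 AP-1 and 1 C/EBP match, with no match overlapping another. The NF-kB letters were not in these 4 runs, and the parts of the windows outside the runs were not searched. Among all 32851 promoter runs of the same length, 23.3% held the GAGGAA letters, 6.75% the AP-1 letters, 9.56% the C/EBP letters and 1.41% the NF-kB letters. A match is a description of the sequence and not a measured binding site.

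At 24 h 4288 windows were gained, 1.45% of the 295785 windows, and 6311 were lost, 2.13%. A gain needs 3 peaks and 2 absences and a loss 2 peaks and 3 absences, so the 2 counts were not set against each other. Most of the other windows were shared, with 177389 (59.97%) present in all 5 libraries. In between, 18282 had a peak in all 3 LPS libraries and 1 saline library, and 11492 in 1 LPS library and both saline libraries. For the presence or absence of a peak at a single window, an exact permutation test of 3 against 2 libraries cannot reach a two-sided p under 0.2, so gains and losses are reported as descriptions. Because both definitions ask for agreement of every library, each count rose when a library was left out. Gains were 6617, 8812 and 8044 without LPS replicates 1, 3 and 4 and 16361 and 10497 without saline replicates 2 and 3. Losses were 11453 and 10792 without LPS replicates 1 and 3, and 19617 and 46850 without saline replicates 2 and 3.

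Gained and lost peaks were weak ones. Peaks were ranked within each library by fold value, as percentiles from the weakest to the strongest among the windows of that library. Gained peaks had a median percentile of 29.0, 22.1 and 27.5 in LPS replicates 1, 3 and 4, where windows with a peak in all 5 libraries had 67.3, 64.6 and 63.8. Lost peaks had a median percentile of 24.8 and 17.3 in saline replicates 2 and 3, against 69.2 and 62.9. Among the strongest 10% of LPS replicate 1 were 18 of the 4288 gained peaks (0.420%), and among those of saline replicate 2 were 9 of the 6311 lost peaks (0.143%).

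**Figure D1:**
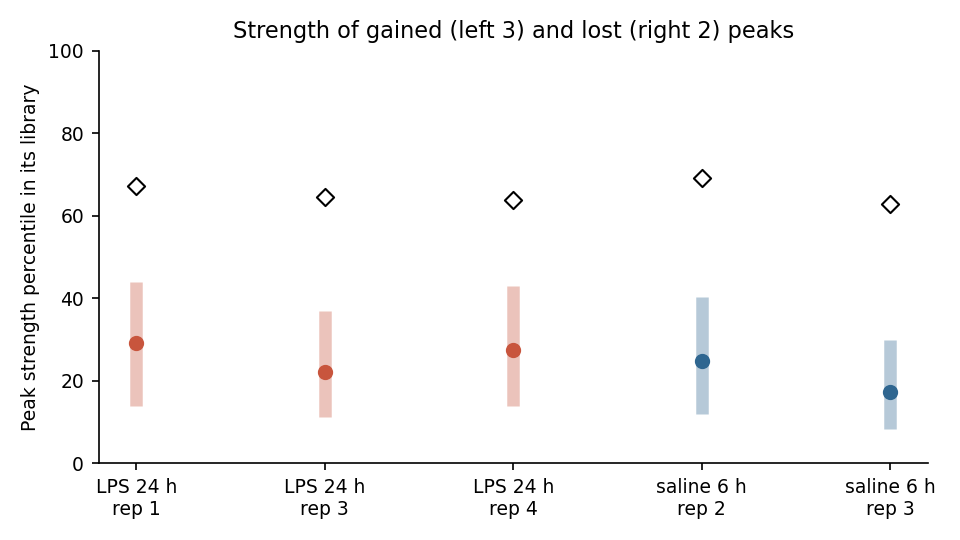
Strength percentile of gained peaks in the 3 LPS 24 h libraries (orange) and of lost peaks in the 2 saline libraries (blue). Points are medians over windows, bars run from the 25th to the 75th percentile, and open diamonds are medians of windows with a peak in all 5 libraries. The gained and lost medians lie between 17.3 and 29.0 and the diamonds between 62.9 and 69.2.

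Gained windows lay farther from genes than lost ones. Of the gained windows 27.9% (1197) were over 100 kb from any protein-coding gene, against 11.5% (726) of the lost, 14.8% of those with a peak in all 5 libraries and 15.3% of those in 2 or more. Inside gene bodies lay 48.1% of the gained, 60.8% of the lost and 54.8% of the windows in all 5. The median distance to the nearest gene start was 51535 bp for gained, 26201 bp for lost and 28389 bp for windows in all 5. Within 1 kb of a start lay 4.58% of gained and 3.72% of lost windows, against 10.8% of windows in all 5. The order of gained and lost depended on the processing. For separate peaks the shares were 1.61 and 3.08%, and with any overlap of 1 bp they were 2.44 and 3.26%. With narrower windows they were 8.42 and 4.01%, and the share of windows in all 5 was 13.4%. The same direction of distance was seen in the whole peak lists, as given above. Among the 15 strongest gained windows with a separate peak (its summit inside the window and no peak of the other group touching it) 11 were beyond 100 kb of a gene, and among the 15 strongest lost ones 4 were. These windows were chosen after their values were seen. Of the strongest gains, windows lay in the gene bodies of Smg6, which encodes a nuclease of nonsense-mediated decay, and Lrp1b, a lipoprotein receptor gene. Both windows had a peak in 3 of 3 LPS hippocampi at 6, 12 and 24 h. At Smg6 every frontal cortex library, saline ones included, had a peak too, and at Lrp1b none did.

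**Figure D2:**
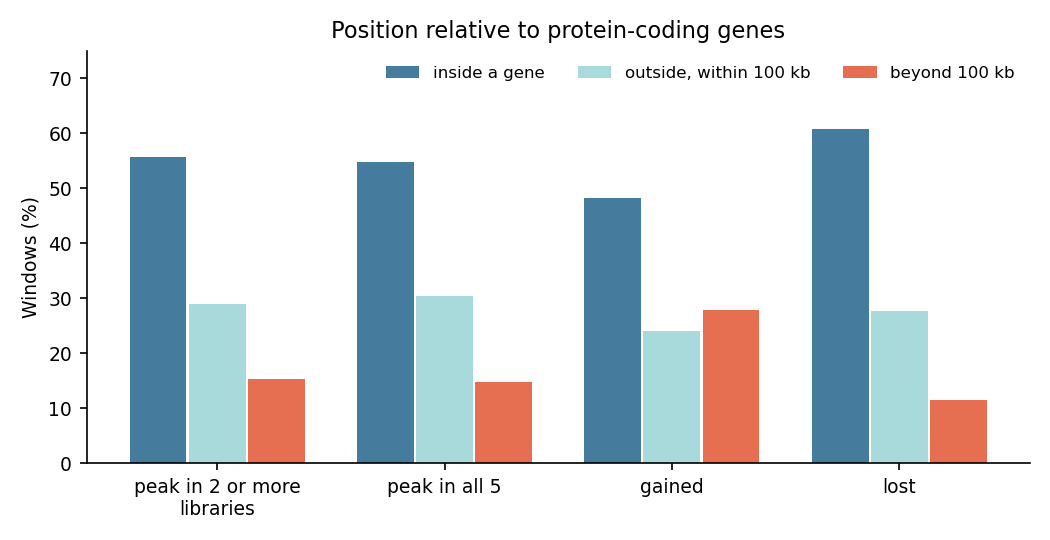
Share of windows inside a protein-coding gene, outside but within 100 kb, and beyond 100 kb, for windows with a peak in 2 or more of the 5 libraries, in all 5, gained and lost. The bar for gained windows beyond 100 kb stands at 27.9% and that for lost windows at 11.5%.

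The chromosomes were alike in losses, which ran from 1.90% of windows on chromosome 3 to 2.41% on chromosome 12, apart from chromosome Y with 2 of 30 windows. Gains ran from 1.16% on chromosome 5 to 2.22% on chromosome X, where 145 of 6530 windows were gained, with 0 of 30 on chromosome Y.

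Windows with a peak in all 5 libraries were compared by their strength rank, over the same windows in every library. Percentiles in this comparison are among those windows. Ranks were turned into normal scores and fitted with limma. At an adjusted p of 0.05, 8 of 177389 windows ranked higher after LPS (0.00451%) and 0 ranked lower (0%), with 9056 and 6742 at an unadjusted p under 0.05. The 8 lay in or beside Enpp4, Dhx57, Susd6, Snx2, Srm, Arl3, Nme1 and Spag9, and their values were split to the extremes. The Enpp4 window (chromosome 17, 44105077 to 44105577, in the gene) had percentiles of 98.4, 97.6 and 97.9 after LPS and 1.49 and 2.03 after saline (score difference 4.16 ± 0.21 SE, limma adjusted p = 0.00268). The Susd6 window (chromosome 12, 80790780 to 80791280, 498 bp from its start) had 93.3, 94.2 and 94.4 against 10.04 and 9.25 (2.86 ± 0.20 SE, limma adjusted p = 0.0167). In all 8 windows both saline libraries had a summit inside the window and 0 of 3 LPS libraries did, so that the LPS value there belonged to a peak whose summit lay outside. With only the 176458 windows that had a summit inside in all 5 libraries, a restriction chosen after seeing the data, limma called 0 higher and 0 lower, with a lowest adjusted p of 0.477. Without LPS replicate 3 or 4 no window was called higher, 5 were without LPS replicate 1, and 36 and 167 were without saline replicates 2 and 3. Windows ranked lower numbered 1 and 29 without saline replicates 2 and 3.

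Below that threshold the ranks also moved with distance from genes. Of the shared windows beyond 100 kb, 59.3% had a higher mean score after LPS, against 47.0% of those nearer to a gene but over 1 kb from a start and 51.5% of those within 1 kb. The median percentile of the 26333 windows beyond 100 kb was 59.8, 59.9 and 61.3 after LPS and 55.2 and 57.6 after saline. The groups did not overlap, with a difference of 3.89 percentile points (exact permutation p = 0.2, adjusted 0.3 over 3 places, the raw value being the lowest possible). At gene starts the medians were 62.9, 65.3 and 64.4 against 61.0 and 64.1 and overlapped (exact permutation p = 0.4). Among windows with a summit inside in all 5 libraries, the one ranked highest by p lay in the body of Nrxn3, a presynaptic adhesion gene (chromosome 12, 89024241 to 89024741). Its percentiles were 82.6, 84.2 and 82.9 after LPS and 13.3 and 22.0 after saline, and the limma adjusted p was 0.477. A window in Fhit stood at 80.2, 73.8 and 86.5 against 6.48 and 18.2, and one in Tbc1d5, which acts in endosome traffic, at 64.0, 62.2 and 61.3 against 96.1 and 94.5. Neither passed (limma adjusted p = 0.477).

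Gains and losses were also seen by gene. Of 18457 protein-coding genes with a window in or within 100 kb, 2305 had a gain, 3949 a loss and 974 both, and over the 250546 windows assigned to genes 1.23% were gained and 2.23% lost. The 10 genes with the largest surplus of gains were 505 to 2271 kb long. Fhit, a gene at a common fragile site (chromosome 14, 9550092 to 11162061), had 8 gained and 0 lost of 159 windows. Lsamp, a neuronal adhesion gene of the IgLON family, had 10 and 2 of 333, Csmd3 8 and 1 of 116, Dpp10, an auxiliary subunit of Kv4 channels, 7 and 0 of 121, and Ptprd, a synaptic receptor phosphatase, 9 and 2 of 250. Lrrc4c had 7 and 1 of 176, Lrrtm4 6 and 1 of 99, and Erbb4, Car10 and Sgcd 5 and 0 each. Erbb4, the neuregulin receptor of many interneurons (chromosome 1, 68031884 to 69108576), had the highest gained share of these, 7.81% of 64 windows.

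The largest surpluses of losses lay at other long genes and at some shorter ones. Rbfox1, a neuronal splicing regulator (chromosome 16, 5884793 to 7412480), had 0 gained and 12 lost of 364 windows. Pde4d, a cAMP phosphodiesterase gene, had 1 and 11 of 214, and Dab1, the adaptor of reelin signalling, and Csmd1 each had 3 and 11, of 296 and 288. Dlg2, a postsynaptic scaffold gene, had 1 and 8 of 375, and Kalrn, a guanine nucleotide exchange factor of dendritic spines, 0 and 7 of 173. As shares the losses were 3.30% at Rbfox1, 5.14% at Pde4d, 3.72% at Dab1, 3.82% at Csmd1 and 4.05% at Kalrn. At Dlg2 the lost share was 2.13%, below the 2.23% over all windows assigned to genes. The lost share was higher at some shorter genes. Slc22a23 (166 kb) had lost 7 of 62 windows (11.3%), Klf13 (52.6 kb), a Krüppel-like factor gene, 6 of 48 (12.5%) and Gmds (519 kb) 6 of 73 (8.22%), with 0 gained at all 3. A long gene holds more windows, so a count follows length and the share is the value to set beside 1.23% and 2.23%.

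At gene starts 189 windows were gained and 227 lost, and they differed in kind. Of the gained ones 60 were separate peaks and 129 were not, and of the lost ones 176 were and 51 were not. The 10 strongest gained windows at starts, led by Pyurf, were all of the second kind, with percentiles that disagreed between libraries (32.3, 97.7 and 96.2 at Pyurf). Among the separate peaks were the starts of 34 protein-coding genes for gains and 94 for losses, and those are described here.

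The gained starts described here were picked after their values were seen, and no test was made of them as a group. Of the 18 lists, separate gained starts lay on the blood list at Ptprc and on the endothelial list at Flt1, and separate lost starts at Ikbkg, Ddx58 and Ccl3. Ptprc encodes CD45, the phosphatase of all nucleated blood cells and microglia. Its window (chromosome 1, 138175423 to 138175923, 368 bp from the start) had fold values of 4.22, 2.21 and 2.36 in the LPS libraries, at percentiles of 58.8, 11.1 and 18.7. Besides 3 of 3 libraries at 24 h, a peak was there in 1 of 3 LPS hippocampi at 6 h and 3 of 3 at 12 h, and in none of the 11 frontal cortex libraries. Ms4a7, a gene of macrophages, had the same fold values and percentiles (weak peaks often share a value) at chromosome 19, 11335069 to 11335569, and a peak in 3 of 3 LPS hippocampi at 6, 12 and 24 h, in 0 of 2 saline and in no cortex library. Fcna, which encodes a ficolin, a pattern recognition lectin, had fold values of 2.66, 2.13 and 2.19 (percentiles 24.2, 8.51 and 11.8), with a peak in 1 of 3 libraries at 6 h, 2 of 3 at 12 h and none in cortex. Cd244a, a receptor of natural killer cells, stood at 4.53, 3.48 and 2.06, and here every frontal cortex library, saline ones included, had the peak too. All of these peaks were of low to middle strength, and LPS replicate 1 had the highest value at each of the 4. Across 21 microglia and macrophage genes a start peak was present at 11, 10 and 11 genes after LPS and at 11 and 9 after saline, which overlapped, and the part of such cells in these gains was not tested.

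Flt1, which encodes a VEGF receptor of endothelium, had percentiles of 13.8, 16.5 and 13.1 at its gained start window, and a peak in 1 of 3 libraries at both 6 and 12 h. Aebp1, a gene linked to extracellular matrix, had 49.1, 30.95 and 31.8, and Lipa, the lysosomal acid lipase gene, 34.95, 24.0 and 9.11. Uhrf1, which acts in the upkeep of DNA methylation, had 26.8, 30.0 and 1.72, and Cyp19a1, the aromatase gene, 10.4, 13.4 and 18.7. Uhrf1 and Cyp19a1 had a peak in 0 of 3 LPS hippocampi at 6 h and 1 of 3 at 12 h.

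Among the lost starts Ccl3, which encodes the chemokine MIP-1 alpha, had the strongest single peak of those named here. Its window (chromosome 11, 83649310 to 83649810, 182 bp from the start) had fold values of 7.18 and 3.06 in saline replicates 2 and 3, at percentiles of 83.5 and 33.5. LPS hippocampi had a peak there in 3 of 3 libraries at 6 h, 2 of 3 at 12 h and 0 of 3 at 24 h. In frontal cortex it was in 2 of 2 saline libraries and in 3 of 3, 3 of 3 and 1 of 3 LPS libraries at 6, 12 and 24 h. Tlr5, the flagellin receptor gene, had percentiles of 39.1 and 34.7 in saline and a peak in 2 of 3 LPS hippocampi at 6 h and at 12 h. Ikbkg, which encodes the regulatory subunit of the IkB kinase, had 14.2 and 4.19, and Ddx58, the gene of the RNA sensor RIG-I, 4.18 and 17.3. Dock2, a Rac activator of leukocytes, had 34.5 and 45.8, Spib, an ETS factor of B and dendritic cells, 33.2 and 13.9, Ugt1a2, a glucuronosyltransferase gene, 64.3 and 55.4, and Fgf21, a metabolic hormone gene, 32.1 and 30.2. Fgf21 had a peak in 3 of 3 LPS hippocampi at 6 h and 0 of 3 at 12 h. The Tlr5 and Dock2 windows had a peak in every frontal cortex library.

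**Figure D3:**
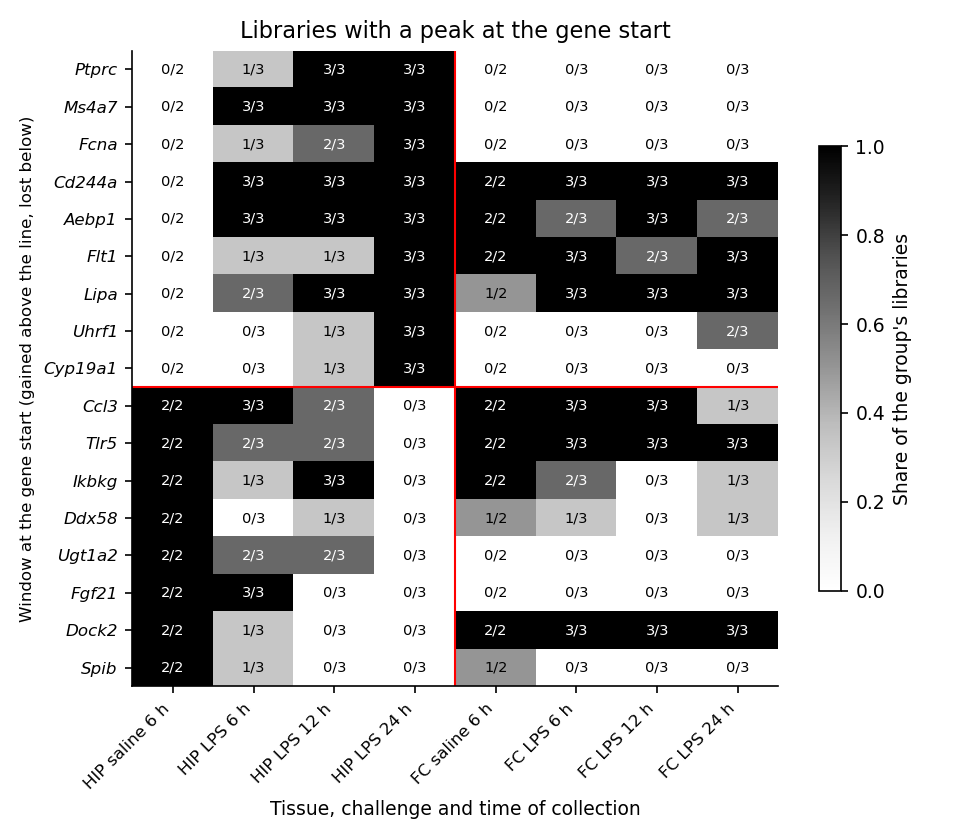
Number of libraries with a peak at 17 gene starts in the 8 groups of the series (HIP, hippocampus, FC, frontal cortex), with gained starts above the red line and lost starts below it. Shading is the share of the group's libraries. Hippocampus saline and LPS 24 h are fixed by the definition, and the other 6 columns were not used to choose the windows.

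The genes that answer LPS were next taken as lists. The acute inflammatory and NF-kB list had 3 gained (0.696%) and 12 lost (2.78%) of 431 windows, beside 1.23% and 2.23% over all genes. Of its 44 genes with windows, 3 had a gain and 10 a loss, where 2305 and 3949 of all 18457 genes with windows did. The losses lay at Ccl3 and Ccl4 (2 neighbouring chemokine genes, 2 windows, both of which the nearest gene body assigns to Ccl4), Nfkb1 (2 windows), Nfkbiz, Stat3, Socs3, Tnf, Ptgs2, Il1rn, Nos2 and Saa3. These name a cytokine, chemokines, an NF-kB subunit and the feedback genes Socs3 and Nfkbiz, and the list was not tested as a group. The Tnf window, 1400 bp from a gene start, had percentiles of 32.5 and 13.1 in saline and a peak in 3 of 3 LPS hippocampi at 6 h, 2 of 3 at 12 h and 0 at 24 h. The windows at Ptgs2, Il1rn, Nos2, Stat3, Socs3 and Nfkbiz had a peak in no LPS hippocampus at any time. Gains lay at Il1a, Ptges and Il1r1, the interleukin-1 receptor gene, whose window stood at 37.6, 51.3 and 24.2 and was in 3 of 3 libraries at 12 h and 0 of 3 at 6 h.

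Of the genes of LPS sensing, Tlr4 and Cd14, the receptor and its co-receptor, each had a gained window, and Ikbkb, Irak2, Irak4 and Lbp a lost one, which made 2 gained (0.971%) and 4 lost (1.94%) of 206 windows. The Tlr4 window was in 3 of 3 LPS hippocampi at 6, 12 and 24 h. In frontal cortex it was in 1 of 2 saline libraries and in 3 of 3, 2 of 3 and 3 of 3 LPS libraries at 6, 12 and 24 h. The interferon list had 1 gain, near Gbp5, and 5 losses (3.36%) of 149 windows, at Ddx58 (2), Irf8 (2) and Irf1. Glucocorticoid response genes had 6 gains (1.13%) and 12 losses (2.25%) of 533, with 2 and 3 at Nr3c2, the mineralocorticoid receptor gene, 1 and 3 at Zbtb16 and 1 loss each at Nr3c1, the glucocorticoid receptor gene, and Fkbp5, its co-chaperone.

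Cholinergic and esterase genes, the class that DFP acts on, had 9 gains (2.24%) and 12 losses (2.99%) of 401 windows. Mgll, the monoacylglycerol lipase gene, had 2 and 4, Chrm3, a muscarinic receptor gene, 3 and 1, and Chrna7, the alpha 7 nicotinic receptor gene, 2 and 0. Clock genes had 10 gains and 10 losses of 483 windows (2.07% each), with 2 and 3 at Rora and 1 and 2 at Arntl, which encodes BMAL1. Collection times of day are not given in the sources used here.

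The neuronal lists were described by their counts, and no difference between lists was tested. Genes of hippocampal neuron identity had 10 gains (0.936%) and 32 losses (2.996%) of 1068 windows, with a loss at 13 of 30 genes and a gain at 7. Over all 18457 genes with windows, 3949 had a loss and 2305 a gain. Such a count of genes rises with the number of windows per gene, so the shares of windows are the values to compare. Zbtb20, a transcription factor of hippocampal pyramidal neurons, had 2 gained and 5 lost of 150 windows, Bcl11b, which encodes CTIP2, 0 and 4 of 59, Grik4, a kainate receptor gene of CA3, 0 and 4 of 123, and Prox1, the granule cell factor, 0 and 3. The lost Prox1 windows had percentiles of 7.60 to 45.8 in saline. Synaptic genes, the longest list, had 42 gains (1.25%) and 72 losses (2.14%) of 3364 windows, close to all genes. Inhibitory neuron genes had 7 gains (1.77%) and 10 losses (2.53%) of 396 windows, with 5 and 0 at Erbb4 and 1 and 5 at Adarb2. Excitatory neuron genes had 3 gains (0.735%) and 9 losses (2.21%) of 408, with 0 and 5 at Rbfox3, the gene of the neuronal antigen NeuN. Immediate early and activity genes had 4 gains (1.04%) and 5 losses (1.31%) of 383. Cortical layer and striatal genes, a list for neighbouring tissue, had 14 gains (2.23%) and 10 losses (1.59%) of 628 windows, led by Tle4 with 3 and 0.

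Endothelial and mural genes had the highest lost share of the 18 lists and the second highest gained share, 14 (4.15%) and 10 (2.97%) of 337 windows. Over the whole list the share of windows with a peak overlapped between the groups, at 86.1, 79.5 and 75.7% after LPS and 90.8 and 77.4% after saline. Gains lay in or near Cdh5, the VE-cadherin gene (2), Rgs5, a pericyte gene (2), Slco1a4, a transporter of the blood-brain barrier, Tek, Kdr, Eng, Flt1 and Mfsd2a. Losses lay at Flt1 (3), Erg (2), Foxq1 (2), Kdr, Pecam1, Ptprb, Myh11, Notch3, Tbx18 and Mfsd2a. The Slco1a4 window had percentiles of 61.2, 36.8 and 66.0 after LPS. Microglia and macrophage genes had 3 gains, among them windows in or near Gpr34 and Itgam, and 3 losses (Fcrls 2, Spi1 1) of 163 windows, 1.84% each. Blood leukocyte and erythroid genes had 2 gains, both at Ptprc, and 2 losses of 62 windows, and 7 of the 24, among them the neutrophil gene S100a8, the monocyte gene Ccr2 and the haemoglobin gene Hba-a1, had no window at all. The list had a peak at a start for 1, 2 and 2 genes after LPS and for 2 and 0 after saline. Astrocyte genes had 1 gain and 7 losses (2.67%) of 262, oligodendrocyte genes 1 and 3 (1.04%) of 289, and choroid plexus and ependyma genes 1 and 2 (1.18%) of 169. LPS replicate 4 had a peak at the starts of 8 of 19 astrocyte genes, where the other 4 libraries had 13 or 14. Its part in the losses was not tested.

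**Figure D4:**
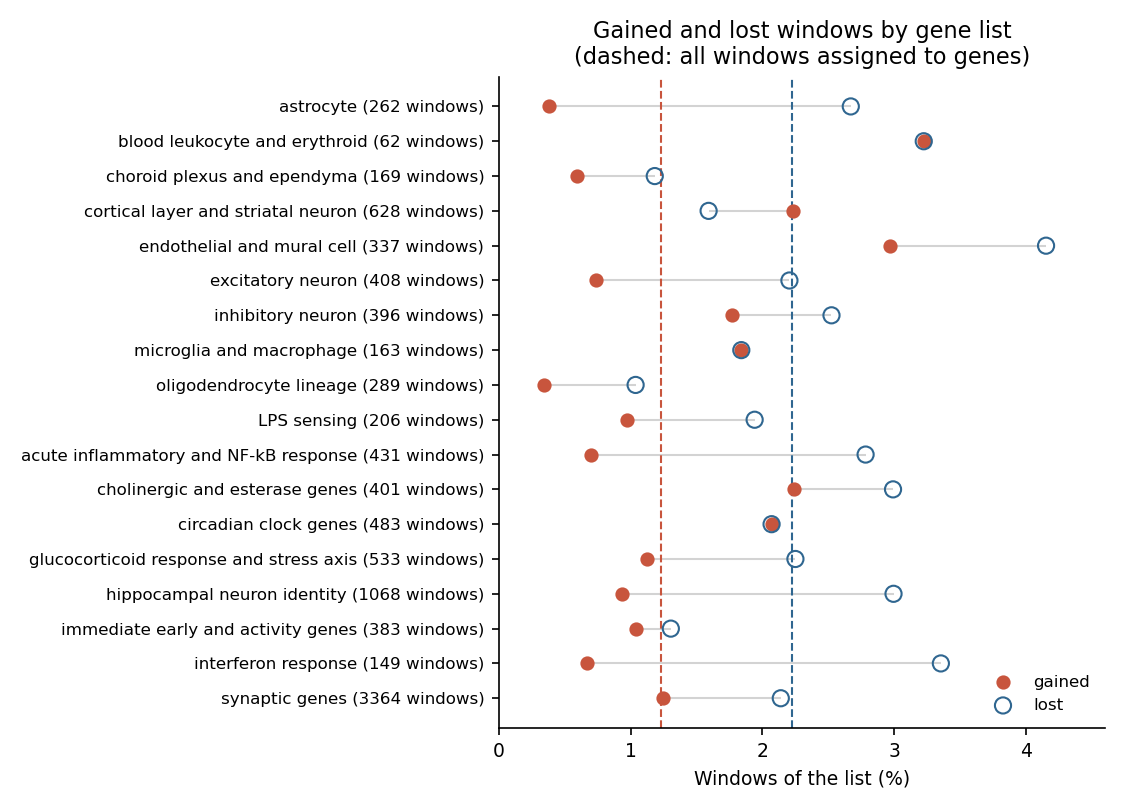
Share of the windows of each of 18 gene lists that were gained (filled orange) or lost (open blue). Dashed lines are the shares over all windows assigned to genes, 1.23% gained and 2.23% lost. The endothelial and mural, blood, cholinergic and inhibitory neuron lists lie to the right of both lines. The acute inflammatory, hippocampal identity, interferon, astrocyte and glucocorticoid lists lie left of the gained line and right of the lost line.

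Libraries outside the comparison were read at the same windows. Of the gained windows 48.7, 54.0 and 41.5% had a peak in the LPS hippocampi at 6 h and 62.4, 69.5 and 74.2% at 12 h, while by definition 0% did in saline. Over all windows with a peak in 2 or more of the 5 defining libraries, these hippocampi had a peak at 78.4, 80.6 and 69.8% at 6 h. At 12 h the shares were 75.3, 84.0 and 82.3%, so the libraries also differed in how many peaks they had at all windows. In the frontal cortex of the same animals the share was 49.0, 47.6 and 51.8% at 24 h after LPS and 31.9 and 35.8% in saline, and the groups did not overlap. The difference was 15.6 percentage points (49.5% ± 2.17, SD, n = 3, against 33.9% ± 2.72, SD, n = 2, exact permutation p = 0.2, adjusted 0.4 over 4 measures). Cortex at 6 and 12 h lay between 32.4 and 40.8%. Over all windows with a peak in 2 or more of the 5 hippocampal libraries, the cortex shares overlapped. They were 67.4, 63.4 and 68.3% at 24 h and 64.9 and 57.9% in saline. The whole cortex peak lists also differed in distance from genes. Peaks over 100 kb from any protein-coding gene made up 14.85 to 15.28% of each list at 24 h after LPS. In saline cortex they made up 13.89 and 12.69%, and the groups did not overlap. The part of this difference in the cortex share of gained windows was not tested. For lost windows the cortex shares were 29.9, 22.5 and 31.6% at 24 h and 37.0 and 23.1% after saline, which overlapped (difference -2.05 points, exact permutation p = 0.8). In LPS hippocampi 40.1, 41.0 and 17.5% of the lost windows had a peak at 6 h and 17.6, 41.2 and 25.7% at 12 h, so libraries of 1 group lay far apart. The 6 h and 12 h values rest on the same saline libraries through the definition of the windows.

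**Figure D5:**
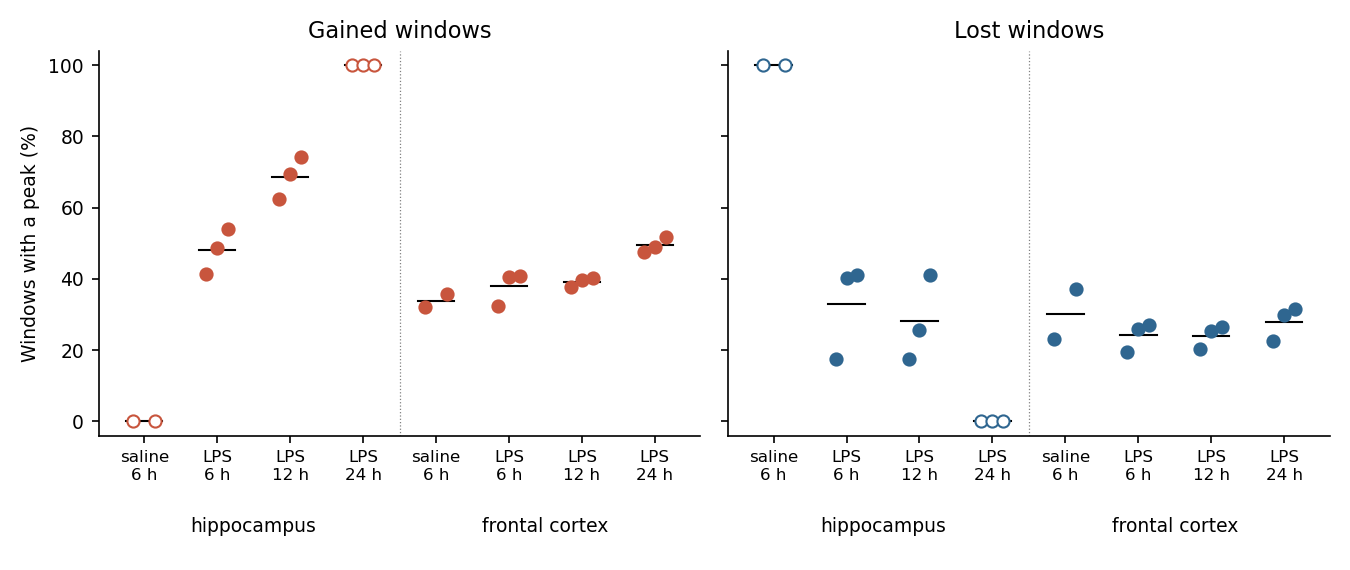
Share of the 4288 gained and 6311 lost windows with a peak in each of the 22 libraries. Open points are the 5 libraries that define the windows, filled points the other 17, and lines are group means. For gained windows cortex at 24 h after LPS lies at 47.6 to 51.8% and cortex after saline at 31.9 and 35.8%.

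The authors' own read-based comparison of the same groups, made with csaw, gave a shorter list. The authors' deposited table held 97 regions higher and 82 lower at 24 h, of which 4 and 11 had an FDR of 0.01 or less, with no fold changes. Of the 97 higher regions in the authors' deposited table, 28 lay at a gained window, 37 had a peak in all 5 libraries and 4 had no peak in any. Of the 82 lower regions in the authors' deposited table, 15 lay at a lost window and 26 had a peak in all 5. These counts overlap: the higher region near Polr1a lay at a gained window and the lower one in Sgk3 at a lost window, and both had a peak in all 5. Regions higher in the authors' deposited table lay beyond 100 kb of a gene in 38 of 97 cases and lower ones in 13 of 82. The authors chose these regions on the same 5 libraries as the windows. Their positions and the peak shares that follow are therefore descriptions and no independent support. A peak at the higher regions of the authors' deposited table was present in 90.7, 87.6 and 88.7% of cases after LPS and 46.4 and 44.3% after saline. At the lower regions of the authors' deposited table it was present in 45.1, 65.9 and 34.1% after LPS and in 100% and 85.4% after saline, so LPS replicate 3 kept more of these peaks than replicates 1 and 4.

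The region with the lowest FDR among the higher ones lay 4972 bp from Catsperb (chromosome 12, 101630901 to 101631060, with an FDR of 0.00405 by the authors' deposited table). It was a gained window with peaks at percentiles of 62.6, 71.9 and 71.9 after LPS, here and below among all peaks of the library. The region in Pik3cg, a phosphoinositide kinase gene of leukocytes (chromosome 12, 32178601 to 32178760, with an FDR of 0.00863 by the authors' deposited table), was also gained, at 57.7, 40.9 and 57.7, with a peak in 3 of 3 LPS hippocampi at 6 h and at 12 h. Next to Prim2, a DNA primase gene, a region with an FDR of 0.0173 in the authors' deposited table was gained at 46.8, 17.7 and 55.8. The region in Elmo1 (FDR 0.00863 in the authors' deposited table) had peaks at 55.0, 48.9 and 47.4 after LPS and at 37.9 in saline replicate 2. Near Kdr, a VEGF receptor gene of endothelium, lay a higher region (chromosome 5, 75927851 to 75928060, with an FDR of 0.0309 by the authors' deposited table). It had peaks at 32.6, 40.9 and 51.1 after LPS, none in saline hippocampi and none in LPS hippocampi at 6 h. At the Elmo1 and Kdr regions every frontal cortex library, saline ones included, had a peak too. The regions at Catsperb, Pik3cg, Prim2, Elmo1 and Kdr were also higher in the authors' deposited comparison of hippocampus at 12 h with saline.

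Among the lower regions the lowest FDR in the authors' deposited table was 0.000211 on chromosome Y (90828751 to 90829010), with peaks at 80.5 and 73.8 in saline and none at 24 h. An intron region of Ptprb, an endothelial receptor phosphatase gene (chromosome 10, 116364451 to 116364510, with an FDR of 0.00158 by the authors' deposited table), was a lost window with peaks at 86.3 and 31.8 in saline and in 3 of 3 LPS hippocampi at 6 h and 1 of 3 at 12 h. In Sh2b2, an adaptor gene of receptor tyrosine kinases, all 5 libraries had a peak, at 77.1, 78.2 and 86.6 after LPS and 96.7 and 78.4 after saline (FDR 0.00538 in the authors' deposited table). In Sgk3, a kinase gene related to the glucocorticoid-induced Sgk1, peaks stood at 63.7, 46.4 and 51.1 against 85.1 and 20.1, which overlapped although the FDR in the authors' deposited table was 0.000213. At Cdk8 the peak was in saline replicate 2 alone, at 85.2 (FDR 0.00563 in the authors' deposited table). A peak percentile thus did not separate the groups at each of these regions. Several were not particular to 24 h in hippocampus. In the authors' other deposited comparisons with saline, the Sh2b2 region was lower in both tissues at every time. The chromosome Y and Cdk8 regions were lower in hippocampus at 6 and 12 h. The Sgk3 region was lower in hippocampus at 12 h and in frontal cortex at 6 and 24 h, and the Ptprb region was in none of them. Among genes of the 18 lists, regions of the authors' deposited table included those at Kdr, Adarb2 and Ptprb.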

How the data were processed

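Per the labels' protocols, OMNI-ATAC-seq used frozen tissue (20 to 30 mg) and 50 bp paired-end sequencing. The build was GRCm38 (mm10) and the tools were MACS2 2.2.7.1, Bowtie2 2.4.4, Trim Galore 0.6.7 and FastQC 0.11.9, per the submitters' processing notes. Neither read depths nor a transposase shift are given in the sources used here. Calling was per library. Each peak carries −log10 of its p and q, its score and its fold ratio, all deposited by the authors and used here to rank or filter peaks of the same library. The lowest deposited −log10 p was 2.00 in each of the 5 libraries. In the csaw tables deposited by the authors (csaw is named in the series' design text) each region carries a score, taken to be the FDR as −10 log10, and a direction.

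A peak counted at a window when it overlapped by 50% of the shorter. Each window went to the protein-coding gene it lay in, or the nearest within 100 kb (RefSeq, GRCm38.p6). Gene starts of chromosome 18 were not used here. Strength ranks were fitted with limma 3.58.1 in R 4.3.3 (with trend and robust options), 3 against 2 libraries, with Benjamini-Hochberg adjustment at 0.05, over all windows in the 5 libraries. Single values were compared by exact two-sided permutation. The steps were tested on simulated data. The rule for named genes took the lowest FDR in the deposited table, the largest net number of windows, the 10 strongest gene starts per direction, the lowest limma p, list genes with a changed start, and 2 to 4 genes per list with the most changed windows. A selection is printed. Further list genes and the other gene starts, weak ones included, were chosen outside the rule after their values were seen. The members and the 18 lists (448 genes, 2 unmatched) were chosen with earlier results of these data known. Python 3.11.15, numpy 2.4.6, scipy 1.17.1 and pandas 2.3.3 were used. Alternatives covered stricter or fewer peaks, the overlap, the window width, the ranking and leaving out each library.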

Additional observations from a re-analysis of the deposited data

How the results depend on the processing

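No paired analysis was possible because the LPS 24 h and saline hippocampus libraries come from different animals and share only the replicate number 3. Leaving out 1 library at a time gave 6617 to 16361 gained and 8180 to 46850 lost windows, 0 to 167 windows of higher and 0 to 29 of lower strength rank. With the 100000 strongest peaks of each library 2286 windows were gained and 2451 lost. Windows of higher rank numbered 25 when ranked by −log10 p, 21 with absent peaks at the lowest rank, 13 when −log10 q had to reach 2, and 0 in a fit of all 11 hippocampus libraries or with a summit inside the window in all 5. Windows of lower rank numbered 7 by −log10 p, 2 with absent peaks at the lowest rank and 3 when −log10 q had to reach 2. Within 5 kb of a start lay 9.92% of gained windows, and within 1 kb from 2.44% (any overlap) to 8.42% (narrower windows). At an FDR of 0.01 the authors' deposited table held 4 higher and 11 lower regions. The other overlap rules, the −log10 q minimum and narrower windows left gains between 3485 and 6180 and losses between 5841 and 7054, and the share of gained windows in cortex stayed higher after LPS in all 5 peak and window alternatives (11.1 to 15.7 points). Separate peaks, a criterion chosen after seeing the data, numbered 3881 and 5900. Depth is unknown, and the causes of these changes were not tested.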
